A study of Arabidopsis thaliana with 12 samples.

Results

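Late embryogenesis abundant (LEA) proteins are small, very hydrophilic proteins that accumulate in drying seeds. The set described here holds 40 Arabidopsis thaliana genes of 8 groups, defined by conserved protein motifs, with the dehydrins left out. By group these were 3 LEA_1, 3 LEA_2, 4 LEA_3, 18 LEA_4, 2 LEA_5, 6 seed maturation protein (SMP), 2 PvLEA18 and 2 AtM genes. They were chosen by gene identity from a table of 32833 genes, 16238 of which had enough reads to be tested, and 32 of the 40 members were among those tested. RNA had been sequenced from mature seeds of Col-0, the wild type, and of Atsdr4l-5 dig2, the double mutant, to find genes whose expression differed between the genotypes in each tissue. Seeds were harvested about 18 days after pollination, held at room temperature for 2 days and imbibed for 1 to 2 h, and were then split into the embryo and the seed coat, which still held the endosperm. Each genotype gave 3 biological replicates of either tissue, so that 4 groups and 12 libraries were compared. The mutated genes belong to a small family of transcriptional regulators with roles in the abscisic acid response and in dormancy, and no source used here says which lesion each allele carries. The reads of both genes were not analysed here, so the genotype labels were not checked against them.

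LEA proteins are mostly unfolded in water and fold as they dry, and they protect enzymes and membranes in the dry state. The LEA_2 proteins differ in that they are folded, and some LEA_3 and LEA_4 proteins act in mitochondria or chloroplasts and respond to cold, drought or oxidative stress in leaves. Most LEA genes of the seed are switched on by abscisic acid, through the B3 factor ABI3, which binds the RY element, and through bZIP factors such as ABI5 and the ABFs, which bind the abscisic acid response element (ABRE).

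Libraries held 10301817 to 17619031 reads on genes. Values are given as CPM, read counts brought to 1 common library size after TMM scaling, for libraries 1, 2 and 3 of a group in that order. The dissection was read from marker genes fixed as lists. EPR1, an endosperm gene, stood between 134897 and 202218 CPM in the seed coat libraries and between 118 and 229.6 CPM in the embryo libraries. Of 8 endosperm markers 4 were tested, of which 3 were higher in wild-type seed coat than in wild-type embryo, 1 (EPR1) was higher in double-mutant seed coat and 0 were lower in either genotype. The other 3 tested ones were scarce, and NCED6 had a mean of 20.8 CPM in double-mutant embryo and 12.7 CPM in double-mutant seed coat. RGE1, EXPA2, FIS2 and MEA were at 0 in both embryo groups. MEA was also at 0 in wild-type seed coat, and EXPA2 and FIS2 in double-mutant seed coat, so their zeros say little about the dissection. The summed level of 10 embryo markers was 84.1 to 88.3 CPM in wild-type embryo, 61.9 to 65.6 in double-mutant embryo, 61.0 to 68.6 in wild-type seed coat and 44.2 to 49.1 in double-mutant seed coat. Of the 9 tested, 8 were lower in wild-type seed coat than in wild-type embryo and WOX2 was higher, and in the double mutant 7 were lower and 0 higher. WOX2, SCR and PHB carried most of the sum in wild-type embryo, and ATHB-15 had 0 reads in both seed coat groups. SHR was at 0 in every group but the wild-type embryo. The summed level of 11 seed coat markers was 241.6 to 319.6 CPM in wild-type embryo, 132.1 to 157.8 in double-mutant embryo, 243.3 to 290.006 in wild-type seed coat and 203.1 to 316.2 in double-mutant seed coat, with TT10, TT2 and MYB5 at 0 in both embryo groups. Of the 6 tested, 2 were higher and 1 lower in wild-type seed coat than in wild-type embryo, and 3 were higher and 1 lower in the double mutant. Beside all these marker counts, 24.4% of all tested genes were higher and 22.2% lower in wild-type seed coat. In the double mutant 16.9% were higher and 18.0% lower. The wild-type counts of the seed coat markers lay near these shares and say little about the dissection. EPR1 had a log2 difference of 0.32 between double-mutant and wild-type seed coat that was not called (adjusted p = 0.323). The part of these marker levels in the results below was not tested. In such bulk samples, fewer cells of a type and less RNA per cell cannot be told apart.

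The LEA transcripts were among the most abundant of the mature seed and took a larger share of the mutant libraries. The 40 genes took 5.15%, 5.83% and 6.29% of gene reads in wild-type embryo and 9.96%, 9.10% and 10.4% in double-mutant embryo. In the seed coat they took 4.26%, 4.77% and 4.69% in the wild type and 7.24%, 6.50% and 6.97% in the double mutant. No wild-type library overlapped a double-mutant library of the same tissue in this share. Ranked by level per kilobase of exon among 32548 genes, 18 members were among the first 100 in wild-type embryo, 20 in double-mutant embryo, 15 in wild-type seed coat and 19 in double-mutant seed coat. The LEA reads of wild-type embryo were led by GEA6 with 19.9% of them and M17 with 16.4%, and those of double-mutant embryo by AT3G15670 with 11% and GEA6 with 10.4%. In the seed coat M17 led in the wild type with 16.7%, and AT3G15670 and LEA7 led in the double mutant with 12.2% and 12.2%.

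**Figure D1:**
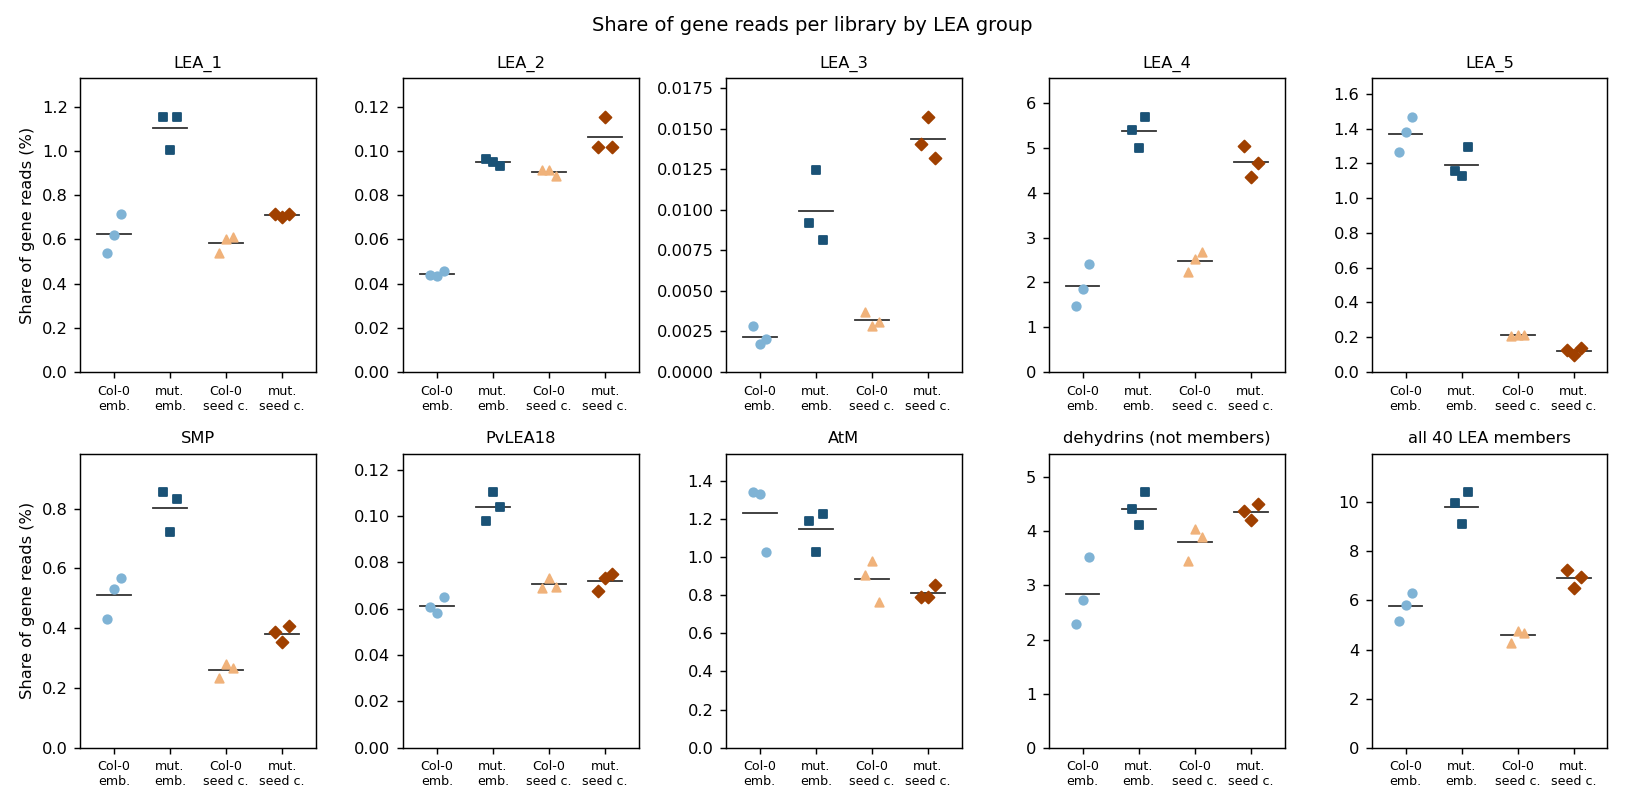
Share of gene reads (%, linear axes from 0) taken by each LEA group, by the dehydrins and by all 40 members in each of the 12 libraries; points are libraries and lines are group means. The 3 mutant embryo libraries lie between 9.10% and 10.4% for all 40 members, above the 5.15% to 6.29% of Col-0 embryo, while for LEA_5 the Col-0 embryo mean of 1.37% stands above the mutant mean of 1.19%.

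Upstream sequence is shown for 7 members to set the later results beside the elements that ABA-responsive factors bind. Windows are the 300 bases before the RefSeq gene start, on the gene's own strand, in assembly TAIR10.1. LEA7 (chr1:19619424-19619723, plus strand), AT3G02480 (chr3:511920-512219, plus strand) and AT4G36600 (chr4:17263264-17263563, plus strand) had the 3 largest embryo rises of the LEA_4 group. GEA6 (chr2:16780369-16780668, minus strand) and EM1 (chr3:19214422-19214721, plus strand) form the LEA_5 group, and M17 (chr2:17206152-17206451, plus strand) is an abundant AtM gene. COR15A (chr2:17712331-17712630, minus strand), a gene known for its induction by cold, had almost no reads. Capitals mark the ABRE core ACGTG and the CRT/DRE core CCGAC on either strand.
LEA7: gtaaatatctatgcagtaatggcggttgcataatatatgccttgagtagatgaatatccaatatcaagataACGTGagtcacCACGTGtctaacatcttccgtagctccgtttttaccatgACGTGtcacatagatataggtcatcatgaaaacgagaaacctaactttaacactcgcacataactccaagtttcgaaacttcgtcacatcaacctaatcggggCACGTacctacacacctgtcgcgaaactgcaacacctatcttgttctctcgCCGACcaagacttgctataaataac
AT3G02480: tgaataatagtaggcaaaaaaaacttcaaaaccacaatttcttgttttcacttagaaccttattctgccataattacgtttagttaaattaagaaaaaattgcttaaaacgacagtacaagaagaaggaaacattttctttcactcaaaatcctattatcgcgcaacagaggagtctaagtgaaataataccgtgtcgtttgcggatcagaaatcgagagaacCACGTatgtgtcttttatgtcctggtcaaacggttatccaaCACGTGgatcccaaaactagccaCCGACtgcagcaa
AT4G36600: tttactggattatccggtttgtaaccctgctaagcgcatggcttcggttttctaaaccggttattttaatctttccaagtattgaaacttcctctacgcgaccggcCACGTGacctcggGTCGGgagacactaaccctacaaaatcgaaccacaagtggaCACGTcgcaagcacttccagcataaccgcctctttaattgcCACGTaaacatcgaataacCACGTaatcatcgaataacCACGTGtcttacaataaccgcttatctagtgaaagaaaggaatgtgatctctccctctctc
GEA6: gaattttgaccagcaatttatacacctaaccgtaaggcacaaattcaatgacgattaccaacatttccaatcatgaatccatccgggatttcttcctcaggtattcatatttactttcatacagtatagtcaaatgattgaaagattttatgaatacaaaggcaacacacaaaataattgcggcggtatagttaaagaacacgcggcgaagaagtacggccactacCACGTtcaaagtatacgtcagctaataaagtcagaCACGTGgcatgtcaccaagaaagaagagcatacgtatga
EM1: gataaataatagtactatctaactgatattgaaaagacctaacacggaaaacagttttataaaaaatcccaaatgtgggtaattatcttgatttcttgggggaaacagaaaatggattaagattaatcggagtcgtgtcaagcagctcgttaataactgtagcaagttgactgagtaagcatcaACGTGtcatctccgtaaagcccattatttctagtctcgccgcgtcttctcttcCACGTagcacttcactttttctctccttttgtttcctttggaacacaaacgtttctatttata
M17: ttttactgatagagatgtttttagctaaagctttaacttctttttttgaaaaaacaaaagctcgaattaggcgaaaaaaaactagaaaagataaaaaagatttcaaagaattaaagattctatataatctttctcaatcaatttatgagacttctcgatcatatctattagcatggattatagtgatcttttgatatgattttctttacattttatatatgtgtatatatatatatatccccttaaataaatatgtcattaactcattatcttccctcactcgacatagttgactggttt
COR15A: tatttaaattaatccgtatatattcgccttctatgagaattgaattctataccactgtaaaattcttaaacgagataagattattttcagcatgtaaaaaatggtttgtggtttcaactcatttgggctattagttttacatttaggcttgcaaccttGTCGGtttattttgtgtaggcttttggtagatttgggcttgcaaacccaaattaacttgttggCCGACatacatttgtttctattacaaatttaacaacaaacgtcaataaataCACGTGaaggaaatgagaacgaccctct

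Sites were counted on both strands for CACGTG (the G-box), ACGTG (the ABRE core), CCGAC and CATGCA (the RY core). Overlapping matches of 1 motif counted as 1 site, and every CACGTG is also an ACGTG site. At least 1 ACGTG site lay in 30 of the 40 LEA windows (75%), against 25.6% of the windows of 27443 coding genes and 36.6% of the 2922 genes called higher in both tissues of the mutant. At least 2 sites lay in 22 LEA windows (55%), against 5.86% of all windows. The G-box was in 20 LEA windows (50%, against 7.09%), CCGAC in 18 (45%, against 13.9%) and CATGCA in 6 (15%, against 10.3%). By group, an ACGTG site was present upstream of 15 of 18 LEA_4, 5 of 6 SMP, 3 of 3 LEA_1, 2 of 2 LEA_5, 2 of 3 LEA_2, 1 of 4 LEA_3, 1 of 2 PvLEA18 and 1 of 2 AtM genes. The windows of 11 members overlap a neighbouring gene. AT4G36600 and AT3G53040 had the most sites, 5 each. The window of M17 held 0 sites of ACGTG and of CCGAC, and that of COR15A held 2 CCGAC sites and 1 G-box. A match is a description of these letters and not a measured binding site.

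**Figure D2:**
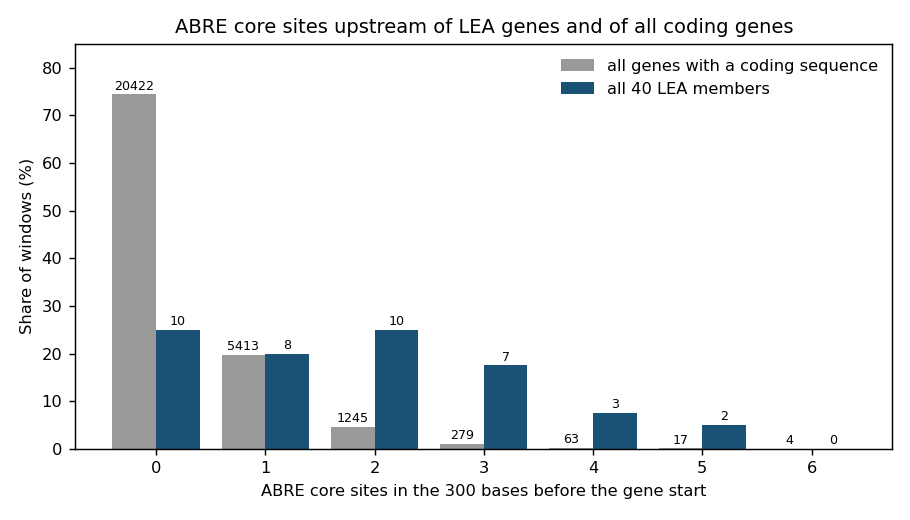
Share of upstream windows of 300 bases (%, linear axis from 0) that held 0 to 6 ABRE core sites, for all coding genes (grey) and for the 40 LEA genes (blue); the number above each bar counts windows. Of the LEA windows 10 held no site and 22 held 2 or more, while 20422 of the 27443 windows of all coding genes held none.

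The first comparison was mutant against Col-0 within each tissue. In the embryo 29 of the 32 tested members rose and 0 fell, with a median log2 fold change of 1.45, beside 25.4% of all tested genes higher, 21.4% lower and an all-gene median of 0.0025. By edgeR's quasi-likelihood test 0 members were also lower at an unadjusted p under 0.05, beside 25.1% of all tested genes. DESeq2 called 30 higher and 0 lower of 33, beside 20.6% of all genes higher and 20.3% lower. In the seed coat 26 rose and 2 fell, with a median of 1.04, beside 24.8% of all genes higher, 23.5% lower and an all-gene median of -0.0038. The embryo and seed coat comparisons share no libraries, but both come from 1 model with a shared estimate of spread. Embryo and seed coat libraries of 1 genotype and number may also come from 1 seed lot. The tissues were therefore not read as independent repeats. The members called in neither direction were both LEA_5 genes and M17 in the embryo, and LEA18, AT2G46140, AT2G23120 and M17 in the seed coat.

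**Figure D3:**
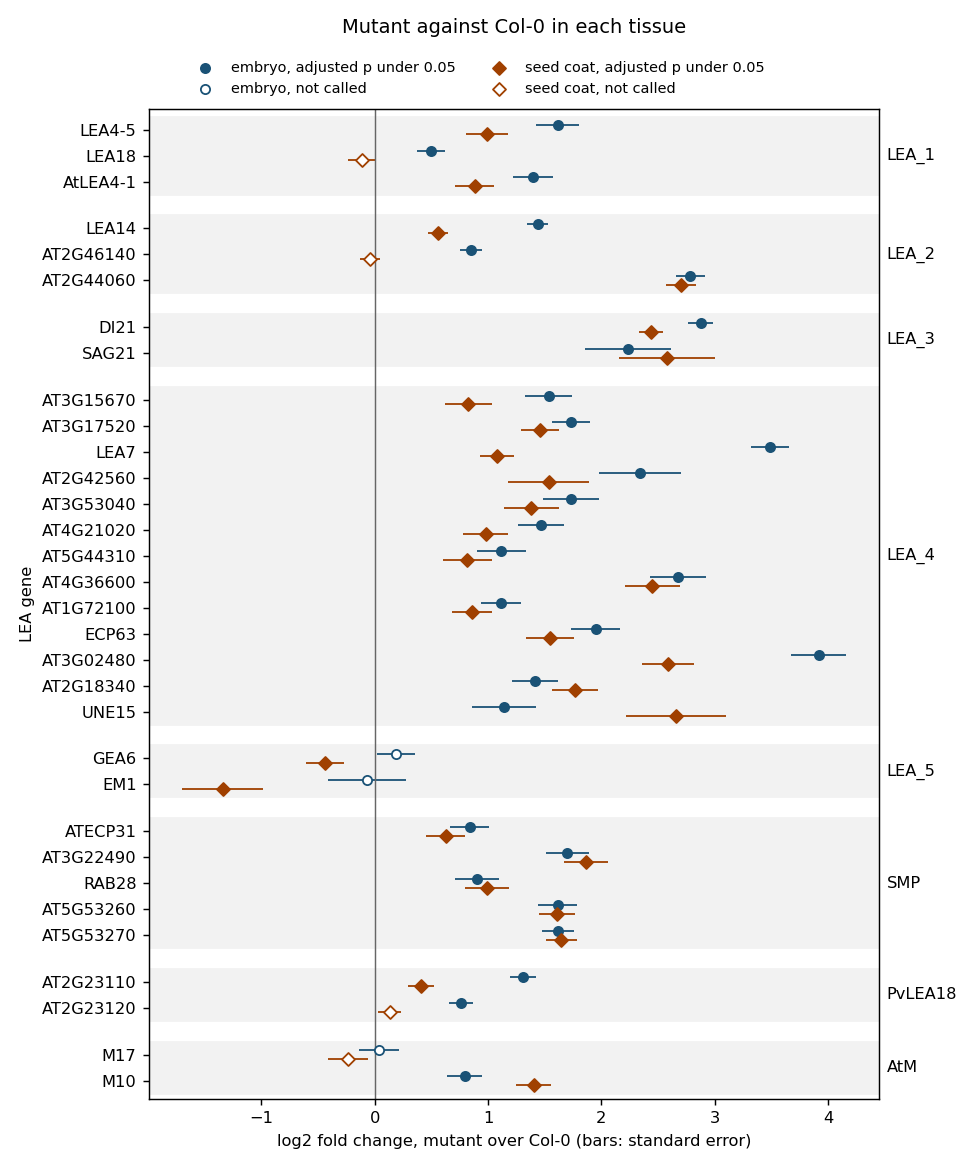
log2 fold change of mutant over Col-0 in the embryo (blue circles) and the seed coat (brown diamonds) for the 32 tested LEA genes, by LEA group; bars are standard errors of the fit, and open symbols are changes with an adjusted p of 0.05 or more. All 13 tested LEA_4 and all 5 tested SMP genes are filled and right of 0 in both tissues, while GEA6 and EM1 are open in the embryo and filled left of 0 in the seed coat.

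**Figure D4:**
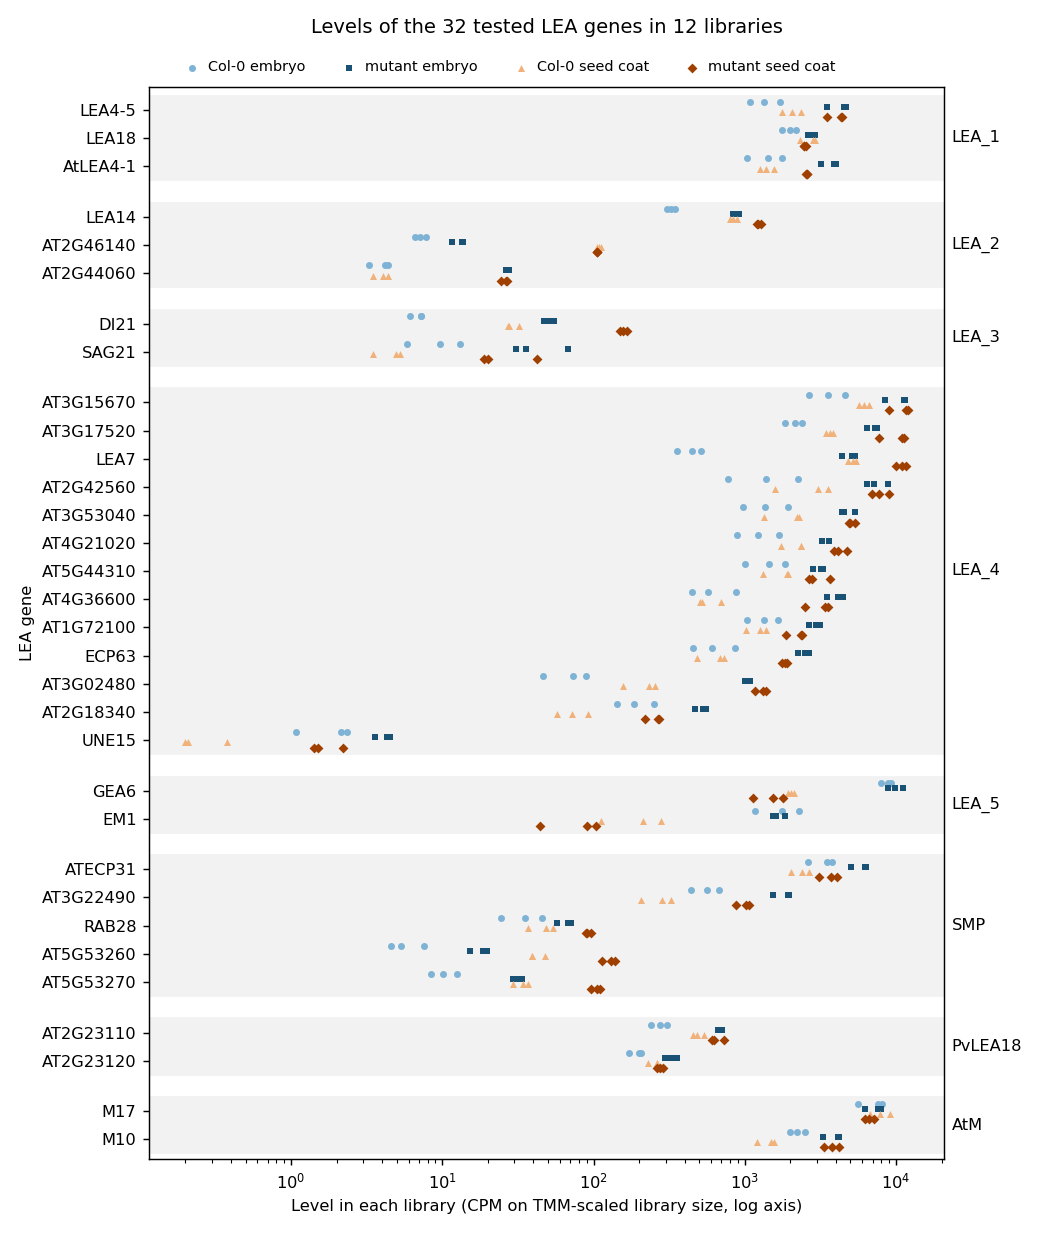
Level of each tested LEA gene in each of the 12 libraries (CPM, log axis), by LEA group; each point is a library. The 3 Col-0 embryo libraries of LEA7 lie between 358 and 515 CPM and the 9 other libraries between 4370.1 and 11662 CPM.

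All 13 tested LEA_4 genes rose in both tissues, with medians of log2 1.73 for the embryo and 1.46 for the seed coat. LEA_4 is the largest LEA group of Arabidopsis, and LEA7 is one of its proteins known to shield enzymes and membranes in drying tests. LEA7 stood at 358, 447 and 515 CPM in wild-type embryo and at 5336, 4370.1 and 5128 CPM in double-mutant embryo (log2 3.49, SE 0.17, adjusted p = 1.97e-08). LEA7 stood at 4812, 5461 and 5161 CPM in wild-type seed coat and at 11662, 10055 and 10877 CPM in double-mutant seed coat (log2 1.08, SE 0.15, adjusted p = 0.000106). The wild-type embryo was thus the 1 group with low LEA7, and the double-mutant embryo reached the range of the wild-type seed coat. AT3G02480, a short LEA_4 protein of 68 residues, had the largest embryo rise of the 32, from 46.1, 73 and 88.9 CPM to 999.5, 1081 and 1064 CPM (log2 3.92, SE 0.24, adjusted p = 1.42e-07). The seed coat rise of AT3G02480 was from 156, 256 and 233 CPM to 1327, 1384 and 1165 CPM (log2 2.59, adjusted p = 2.14e-06). Both genotypes lay far apart in both tissues, and the Col-0 levels were lower in the embryo than in the seed coat.

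AT4G36600, whose protein has 359 residues, stood at 446, 570.0 and 872 CPM in wild-type embryo and at 4119.9, 3485 and 4469 CPM in double-mutant embryo (log2 2.68, SE 0.25, adjusted p = 3.32e-06). The seed coat values of AT4G36600 were 502, 519 and 700.3 CPM in the wild type and 3380.5, 2484 and 3527 CPM in the double mutant (log2 2.45, adjusted p = 5.83e-06). Its levels in the 2 tissues overlapped within each genotype. AT3G15670 had the highest level per kilobase of exon of the group, with means of 3527 CPM per kb in wild-type embryo and 10207 in double-mutant embryo. Its libraries held 2639, 3563 and 4592 CPM in wild-type embryo and 11493, 8481 and 11260.4 CPM in double-mutant embryo (log2 1.53, adjusted p = 8.48e-05). For AT3G15670, wild-type seed coat gave 5688, 6119.9 and 6611 CPM and double-mutant seed coat 11958, 8978 and 11673 CPM (log2 0.82, adjusted p = 0.00583). An already abundant transcript thus rose further, with no overlap of the genotypes in either tissue.

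At the other end of the LEA_4 group, UNE15, named after a defect in fertilisation, was nearly absent from the wild-type seed coat. It had 2.35, 2.15 and 1.07 CPM in wild-type embryo and 4.48, 3.59 and 4.31 CPM in double-mutant embryo (log2 1.14, adjusted p = 0.00503). Its wild-type seed coat libraries had 0.2, 0.377 and 0.209 CPM, from 3, 5 and 2 reads, and the double-mutant ones 2.22, 1.43 and 1.51 CPM (log2 2.65, SE 0.44, adjusted p = 0.000336). The genotypes did not overlap, but the seed coat change rests on 10 Col-0 reads in all. The other 8 tested LEA_4 genes rose by log2 1.11 to 2.34 in the embryo and by 0.82 to 1.77 in the seed coat. Among them ECP63, named after a carrot embryogenic cell protein, changed by log2 1.95 for the embryo and 1.55 for the seed coat.

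Of the 18 LEA_4 genes 5 had too few reads to be tested. AT2G03740 and AT4G13230 had 0 reads in all 12 libraries, which allows at most 3 reads per library, and AT2G03850 was close to 0. COR15A and COR15B encode chloroplast proteins that stabilise membranes during freezing, and they are neighbours on chromosome 2 with 7 bases between their annotated ends. COR15A had 5 reads and COR15B 20 reads in the 12 libraries, all 20 of them in the double mutant. CBF2, a cold-response factor that binds CCGAC, rose in the embryo from 0.912, 0.377 and 0.394 CPM to 1.68, 4.72 and 1.54 CPM (log2 2.17, adjusted p = 0.00614) and was not called in the seed coat (log2 1.18, adjusted p = 0.0526). The COR15 genes thus stayed near 0 in mature seeds of both genotypes.

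Neither LEA_5 gene was called higher in either tissue, and both were called lower in the seed coat. They encode the Em proteins, and GEA6, also known as EM6, is known to affect the timing of water loss in the ripening seed. GEA6 stood at 7947, 8887 and 9289 CPM in wild-type embryo and at 9798, 8888 and 11042 CPM in double-mutant embryo (log2 0.19, adjusted p = 0.379). GEA6 stood at 1926, 2008 and 2114 CPM in wild-type seed coat and at 1531, 1134 and 1788 CPM in double-mutant seed coat (log2 -0.44, adjusted p = 0.0432). The genotypes overlapped in the embryo and not in the seed coat. The seed coat call of GEA6 was lost, at adjusted p from 0.0511 to 0.208, when any 1 of 8 libraries was left out, namely wild-type seed coat 1, 2 or 3, wild-type embryo 2, double-mutant embryo 1 or 3 and double-mutant seed coat 1 or 2, and without double-mutant seed coat 2 its log2 was -0.25. It was also lost with RLE size factors (adjusted p = 0.0522) and without the filter on low counts (adjusted p = 0.0583).

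EM1 stood at 1174, 1761 and 2293 CPM in wild-type embryo and 1599, 1528 and 1849.6 CPM in double-mutant embryo (log2 -0.07, SE 0.35, adjusted p = 0.887). Its seed coat level fell from 112, 281 and 211 CPM to 104, 44 and 90.4 CPM (log2 -1.34, SE 0.36, adjusted p = 0.00781). The genotypes overlapped in the embryo. Of the seed coats, the lowest wild-type library lay just above the highest double-mutant library. ABI5 and EEL are bZIP factors known to bind the EM1 promoter, ABI5 as an activator and EEL as its antagonist. ABI5 rose in both tissues (log2 0.95, adjusted p = 0.000638 in the embryo and log2 0.86, adjusted p = 0.00118 in the seed coat). EEL stood at 11, 15.7 and 12.8 CPM in wild-type seed coat and 58.9, 51.6 and 55.4 CPM in double-mutant seed coat (log2 2.07, adjusted p = 2.26e-07). EEL also rose in the embryo, from 80.6, 97.9 and 80.4 CPM to 125, 105 and 110.4 CPM (log2 0.40, adjusted p = 0.0211), where EM1 was not called. The part of EEL in the EM1 change was not tested. Both LEA_5 windows held 2 ABRE core sites, as the sequences above show.

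The SMP genes rose in both tissues, 5 of 5 tested, with medians of log2 1.61 for the embryo and 1.60 for the seed coat. ATECP31, the most abundant per kilobase, is related to a protein of embryogenic carrot cells. It rose from 2631, 3486 and 3749 CPM to 6376, 5044 and 6212 CPM in the embryo (log2 0.84, adjusted p = 0.00162) and from 2014, 2643 and 2403 CPM to 3744, 3113 and 4050.5 CPM in the seed coat (log2 0.63, adjusted p = 0.00914). Its neighbour AT3G22490, 781 bases away and also an SMP gene, rose from 442, 560.5 and 672 CPM to 1929, 1535 and 1968 CPM in the embryo (log2 1.7, adjusted p = 1.74e-05). AT3G22490 also rose from 205, 282 and 326 CPM to 1024, 870.1 and 1065 CPM in the seed coat (log2 1.87, adjusted p = 7.75e-06). Neither gene of the pair overlapped between genotypes, and AT3G22490 had the larger change in both tissues. RAB28, named after a maize gene induced by abscisic acid, changed by log2 0.90 and 0.99 in embryo and seed coat. AT5G53260 and AT5G53270 changed by log2 1.61 and 1.62 in the embryo and by 1.60 and 1.65 in the seed coat. They are neighbours whose gene spans share a stretch of 99 identical bases. Reads mapped to several places were counted apart from the genes, so reads from this stretch may be missing from both counts. AT5G27980 had too few reads to be tested.

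The LEA_1 genes encode proteins that keep enzymes active during partial drying. All 3 rose in the embryo and 2 of 3 in the seed coat. LEA4-5 rose from 1089, 1336 and 1712 CPM to 4648, 3480.2 and 4544 CPM in the embryo (log2 1.61, adjusted p = 2.48e-05) and from 1762, 2061 and 2372 CPM to 4359.8, 3516 and 4411 CPM in the seed coat (log2 0.99, adjusted p = 0.00088). LEA18 had the highest level per kilobase of the group and stood at 1767, 2004 and 2181 CPM in wild-type embryo and 2865, 2607 and 2935 CPM in double-mutant embryo (log2 0.50, adjusted p = 0.00536). The seed coat values of LEA18 were 2329.8, 2912 and 2838 CPM in the wild type and 2449, 2474 and 2542 CPM in the double mutant (log2 -0.11, adjusted p = 0.468). Its genotypes overlapped in the seed coat and parted in the embryo, where the change was the smallest of the 29 called. Scaled by total reads only, LEA18 was not called in the embryo (log2 0.15, adjusted p = 0.168) and was lower in the seed coat (log2 -0.40, adjusted p = 0.002). AtLEA4-1 rose by log2 1.40 for the embryo and 0.88 for the seed coat.

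The LEA_2 proteins are related to LEA14, a folded protein induced by water stress. All 3 rose in the embryo and 2 of 3 in the seed coat. LEA14 was the most abundant per kilobase and went from 306, 323 and 348 CPM to 912, 839.6 and 892 CPM in the embryo (log2 1.44, SE 0.09, adjusted p = 1.95e-07) and from 799, 884 and 839 CPM to 1209, 1279 and 1228 CPM in the seed coat (log2 0.56, adjusted p = 0.00029). AT2G44060 was scarce, and rose from 3.26, 4.36 and 4.17 CPM to 27.2, 27.8 and 26.3 CPM in the embryo (log2 2.79, adjusted p = 1.07e-08). Its seed coat rise was from 4.4, 3.47 and 4.09 CPM to 27, 24.4 and 26.5 CPM (log2 2.7, adjusted p = 2.47e-08). No library of 1 genotype came near those of the other in either tissue. AT2G46140 rose in the embryo from 7.1, 6.57 and 7.83 CPM to 13.5, 11.6 and 13.6 CPM (log2 0.85, adjusted p = 1.68e-05). For AT2G46140, wild-type seed coat gave 106, 109 and 111 CPM and double-mutant seed coat 105, 105 and 106 CPM (log2 -0.04, adjusted p = 0.703). It was a seed coat transcript in both genotypes, with overlapping seed coat libraries. By total reads AT2G46140 was called lower in the double-mutant seed coat (log2 -0.34, adjusted p = 0.00448).

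Of the LEA_3 genes, 2 of 4 could be tested, and both rose in both tissues. DI21, a drought-induced gene, rose from 7.25, 7.26 and 6.14 CPM to 54.6, 46.9 and 50.4 CPM in the embryo (log2 2.88, SE 0.11, adjusted p = 4.03e-09) and from 32.2, 27.1 and 27.8 CPM to 166, 149.7 and 157 CPM in the seed coat (log2 2.44, adjusted p = 1.27e-08). SAG21, a mitochondrial protein of senescence and oxidative stress, rose from 13, 5.81 and 9.69 CPM to 35.8, 68.2 and 30.9 CPM in the embryo (log2 2.24, SE 0.38, adjusted p = 0.00043). The seed coat rise of SAG21 was from 4.93, 3.47 and 5.24 CPM to 20, 42.2 and 19 CPM (log2 2.58, SE 0.42, adjusted p = 0.000299). Library 2 of the mutant stood above the other mutant libraries of SAG21 in both tissues, and the genotypes still did not overlap. LEA3 had at most 0.24 CPM in any library, and AT3G53770 had 0 reads.

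The PvLEA18 genes AT2G23110 and AT2G23120 are neighbours, 475 bases apart on the same strand. AT2G23110 rose from 240.0, 276 and 308 CPM to 668, 665 and 709 CPM in the embryo (log2 1.31, adjusted p = 2.29e-06) and from 456, 534 and 486 CPM to 626, 607 and 726 CPM in the seed coat (log2 0.41, adjusted p = 0.00991). AT2G23120 rose from 199.7, 172 and 205 CPM to 297, 355 and 326 CPM in the embryo (log2 0.76, adjusted p = 6.9e-05). AT2G23120 stood at 229.6, 264 and 261 CPM in wild-type seed coat and at 264, 287 and 274 CPM in double-mutant seed coat (log2 0.13, adjusted p = 0.314). The genotypes lay apart in the embryo for both genes and close together in the seed coat for AT2G23120. Scaled by total reads only, AT2G23110 was not called in the seed coat (log2 0.12, adjusted p = 0.279).

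The AtM genes M17 and M10 are neighbours on chromosome 2, 1998 bases apart, and are known as seed transcripts. M17 stood at 7657, 8024 and 5604 CPM in wild-type embryo and 7613, 6192 and 8006 CPM in double-mutant embryo (log2 0.04, SE 0.18, adjusted p = 0.891). The seed coat values of M17 were 7782, 9142 and 6695 CPM in the wild type and 6672, 6283 and 7152 CPM in the double mutant (log2 -0.23, adjusted p = 0.299). Its genotypes overlapped in both tissues, and its direction in the embryo turned with the scaling (log2 -0.33 by total reads, -0.0074 by RLE size factors). Scaled by total reads only, M17 was called lower in the seed coat (log2 -0.53, adjusted p = 0.0139). M10 rose from 2003, 2211 and 2487 CPM to 4111, 3281 and 4225 CPM in the embryo (log2 0.79, adjusted p = 0.00102) and from 1212, 1499 and 1572 CPM to 3766, 3331 and 4215 CPM in the seed coat (log2 1.40, adjusted p = 1.32e-05). Of the pair, M10 rose in both tissues and M17 did not pass the test in either.

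The mutant effect was then compared between the tissues, as the seed coat effect minus the embryo effect. In this test 0 members had a larger effect in the seed coat and 6 had a smaller one, with a median difference of log2 -0.38, beside 2.02% of all genes higher, 3.72% lower and an all-gene median of -0.04. At an unadjusted p under 0.05, edgeR's quasi-likelihood test gave 2 higher and 12 lower members, beside 8.07% of all genes higher and 13.0% lower. DESeq2 called 1 member higher and 7 lower, beside 2.65% and 4.15% of all genes. Embryo and seed coat libraries of 1 genotype and number were treated as parts of 1 seed lot, which the labels do not state. With this seed lot as a block 3 members were higher and 16 lower, beside 5.14% of all genes higher and 10.7% lower. Scaled by total reads, 1 was higher and 6 lower, beside 1.93% and 2.89% of all genes. The 6 were LEA7 (log2 -2.41, SE 0.22, adjusted p = 7.01e-05), AT3G02480 (-1.33, SE 0.31, adjusted p = 0.0246), AT2G23110 (-0.90, adjusted p = 0.00671), AT2G46140 (-0.89, adjusted p = 0.00226), LEA14 (-0.88, adjusted p = 0.0024) and AT2G23120 (-0.63, adjusted p = 0.0238). In each of them the wild-type embryo was the lowest of the 4 groups. The call of AT3G02480 was lost, at adjusted p from 0.056 to 0.0721, without any 1 of wild-type seed coat 2 or 3, double-mutant embryo 1 or 3 and double-mutant seed coat 1 or 3. That of AT2G23120 was lost, at adjusted p from 0.0564 to 0.0843, without any 1 of wild-type embryo 2, wild-type seed coat 2 or 3, double-mutant embryo 3 and double-mutant seed coat 1 or 3. It was also lost by total reads (adjusted p = 0.0593) and without the filter (adjusted p = 0.0535).

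Among the members not called for the difference, EM1 had a log2 of -1.27 (SE 0.49, adjusted p = 0.161) and GEA6 one of -0.63 (adjusted p = 0.144). With the seed lot as a block both were called lower (adjusted p = 0.00168 for EM1 and 0.00169 for GEA6). UNE15 had 1.51 (SE 0.54, adjusted p = 0.126) and M10 0.61 (adjusted p = 0.125), and these were higher with the block (adjusted p = 0.0479 and 0.00119). UNE15 was also higher without wild-type embryo 3 (log2 1.78, adjusted p = 0.042). LEA18, at -0.61 (adjusted p = 0.0613), was lower with the block (adjusted p = 0.00126), and without wild-type seed coat 1 (adjusted p = 0.0395) or wild-type embryo 3 (adjusted p = 0.049). The SMP genes lay between -0.21 and 0.17, and none of the 5 was called with or without the block.

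The last comparison was seed coat against embryo within a genotype. In the wild type, 14 members were higher in the seed coat and 7 lower, with a median log2 of 0.40, beside 24.4% of all genes higher, 22.2% lower and an all-gene median of 0.0065. In the double mutant 7 were higher and 7 lower, with a median of -0.05, beside 16.9% of all genes higher, 18.0% lower and an all-gene median of -0.01. These counts depended on the scaling. By total reads only, 9 members were higher and 13 lower in the wild type, beside 10.07% and 53.0% of all genes, and 5 were higher and 19 lower in the double mutant, beside 7.90% and 50.3%. With the seed lot as a block, 18 were higher and 8 lower in the wild type, beside 30.4% and 26.4% of all genes, and 10 were higher and 12 lower in the double mutant, beside 23.2% and 22.4%. The change of this pattern between genotypes is the same quantity as the difference tested above.

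**Figure D5:**
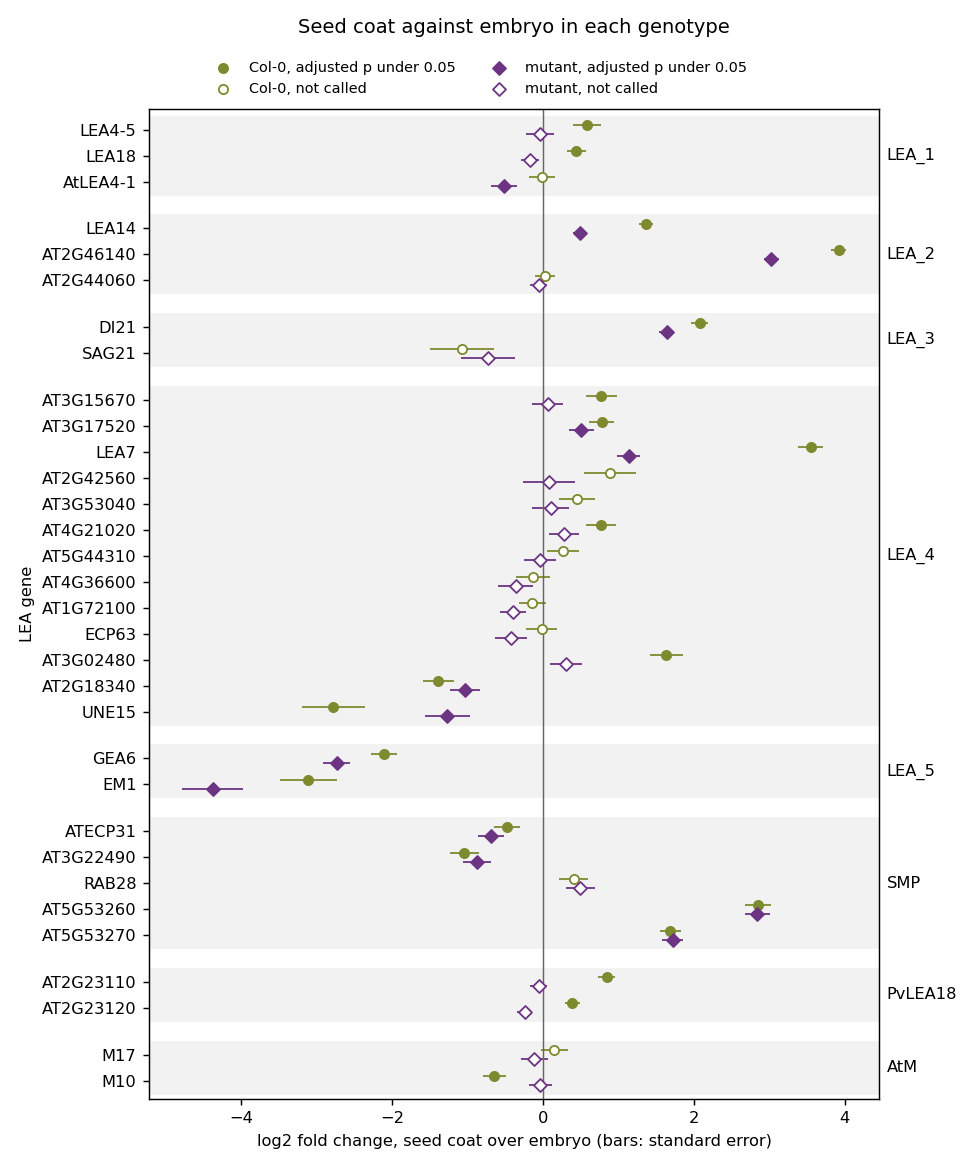
log2 fold change of seed coat over embryo in Col-0 (green circles) and in the mutant (purple diamonds) for the 32 tested LEA genes, by LEA group; bars are standard errors, and open symbols are changes with an adjusted p of 0.05 or more. GEA6 and EM1 lie left of 0 in both genotypes, AT5G53260, AT5G53270, AT2G46140, LEA14, DI21 and LEA7 right of 0, and the gap between circle and diamond is widest for LEA7; scaled by total reads, the median of all genes moves to log2 -0.46 in Col-0 and -0.43 in the mutant, and AT3G02480 turns to -0.11 in the mutant.

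Both LEA_5 genes were embryo-biased in both genotypes. GEA6 was lower in the seed coat by log2 -2.11 in the wild type (adjusted p = 1.2e-06) and -2.74 in the double mutant (adjusted p = 1.51e-07), and EM1 by -3.11 (adjusted p = 3.45e-05) and -4.38 (adjusted p = 3.73e-06). Per kilobase of exon, GEA6 had mean levels of 12094 CPM per kb in wild-type embryo and 13763 in double-mutant embryo, rank 5 of all genes in both. In the seed coat GEA6 had 2800.4 CPM per kb in the wild type and 2062 in the double mutant. Other embryo-biased members were UNE15 (log2 -2.78 in the wild type, adjusted p = 0.000195), AT2G18340 (-1.39, adjusted p = 0.000156), AT3G22490 (-1.04, adjusted p = 0.000734) and M10 (-0.65, adjusted p = 0.00418). ATECP31 was lower in the seed coat by -0.48 in the wild type (adjusted p = 0.0348), a call lost without wild-type seed coat 1 (-0.38, adjusted p = 0.132), wild-type seed coat 3 (adjusted p = 0.0741), wild-type embryo 2 (adjusted p = 0.1) or wild-type embryo 3 (-0.38, adjusted p = 0.115). SAG21, at log2 -1.07 in the wild type, was not called. It was called lower with RLE size factors (adjusted p = 0.0451), by total reads (0.0113), without the filter (0.0158), by DESeq2 (0.0135) and with the seed lot block (1.22e-05). Its call also came with certain single libraries left out, but not with unstranded counts or the block by replicate number.

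Members of several groups had higher levels in the seed coat. AT2G46140 was higher in the seed coat by log2 3.92 in the wild type (adjusted p = 3.76e-11) and 3.03 in the double mutant (adjusted p = 2.6e-10), and DI21 by 2.07 and 1.64. LEA7 was higher by 3.55 in the wild type (adjusted p = 7.97e-09) and 1.14 in the double mutant (adjusted p = 0.000113). The SMP neighbours AT5G53260 and AT5G53270 were higher by 2.85 and 1.69 in the wild type and by 2.84 and 1.72 in the double mutant, opposite in direction to the SMP genes AT3G22490 and ATECP31. AT3G02480 was higher by 1.63 in the wild type (adjusted p = 8.85e-05) and had 0.30 in the double mutant (adjusted p = 0.303), which was called higher with the seed lot block (adjusted p = 0.0122) and turned to -0.11 by total reads. M17 was not called in either genotype (log2 0.15 and -0.12), while by total reads it turned to -0.33 in the wild type and was called lower in the double mutant (-0.53, adjusted p = 0.0129).

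The spread among replicates of a group was shared by many members. In wild-type embryo the highest library was a median of 1.58 times the lowest over the 32 members, against 1.22 in double-mutant embryo, 1.33 in wild-type seed coat and 1.22 in double-mutant seed coat. wild-type embryo library 1 was the lowest of its group for 26 of 32 members and library 3 the highest for 27, where over all tested genes these libraries were lowest and highest for 38.3% and 32.7%. wild-type seed coat library 1 was the lowest for 27 members (34.9% of all genes). In the double mutant, library 2 was the lowest for 27 members for the embryo and 24 for the seed coat (37.1% and 37.4% of all genes). The libraries low for LEA genes thus carried the same number in both tissues of a genotype.

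The dehydrins, the LEA group left out of the set, gave a wider range of changes. Of 10 dehydrins 9 were tested. In the embryo 8 rose and 1 fell, with a median log2 of 1.08, beside 25.4% of all tested genes higher and 21.4% lower. In the seed coat 6 rose and 0 fell, also with a median of 1.08, beside 24.8% and 23.5% of all tested genes. ERD10 and COR47, nearly without reads in wild-type embryo, lie far above these medians at any bound on their folds. ERD10 had 0 reads in wild-type embryo and 324, 386 and 368 CPM in double-mutant embryo, and 1.53, 1.06 and 0.838 CPM in wild-type seed coat and 819, 901 and 729.7 CPM in double-mutant seed coat. ERD14 rose by log2 4.48 in the embryo (adjusted p = 5.88e-09) and 3.45 in the seed coat (adjusted p = 3.13e-08). AT1G54410, a dehydrin that binds metal ions, fell in the embryo from 3.7, 4.25 and 3.27 CPM to 0.112, 0.465 and 0.236 CPM (log2 -3.79, adjusted p = 2.99e-06) and stood at 3.93, 4.3 and 3.14 CPM and 3.47, 4.82 and 3.44 CPM in the seed coats. Dehydrins took 2.85% of gene reads in wild-type embryo and 4.41% in double-mutant embryo, and 3.80% and 4.36% in the seed coats, as group means. No test of the LEA groups against the dehydrins was made.

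Regulators of LEA genes formed a list of 20, of which 15 were tested. In the embryo 11 rose and 1 fell, with a median log2 of 0.98, beside 25.4% of all tested genes higher and 21.4% lower. In the seed coat 8 rose and 1 fell, with a median of 0.94, beside 24.8% and 23.5% of all tested genes. ABF2, a bZIP factor of abscisic acid responses, rose from 2.59, 2.15 and 2.93 CPM to 29, 23.6 and 27 CPM in the embryo (log2 3.37, adjusted p = 2.4e-08) and by log2 2.32 in the seed coat (adjusted p = 3.25e-07). FUS3, a B3 factor of seed maturation, was higher in the seed coat than in the embryo by log2 3.77 in the wild type and 2.13 in the double mutant, and its mutant effect was smaller in the seed coat (log2 -1.64, adjusted p = 0.00921), as was that of ABF2 (-1.05, adjusted p = 0.0192). EEL was the 1 regulator with a larger effect in the seed coat (log2 1.68, adjusted p = 0.000287), against 2 with a smaller one. Of all tested genes 2.02% were higher and 3.72% lower for this difference. EEL was lower in the seed coat than in the embryo in both genotypes (log2 -2.71 and -1.04). AREB3, a bZIP factor of the same family, was the 1 regulator that fell, in the embryo (log2 -0.40, adjusted p = 0.00987) and in the seed coat (log2 -0.45, adjusted p = 0.00516).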

How the data were processed

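The submitters' processing notes name bcl2fastq 2.19, fastp 0.12.4, STAR 2.7.9a and the build TAIR10. The deposited table holds gene counts for 12 stranded poly(A) libraries and equals the reverse-strand column of the 12 deposited STAR count tables. No source used here says whether duplicate reads were collapsed. From these counts, genes were tested with edgeR 4.0.16 in R 4.3.3 (quasi-likelihood F test, filterByExpr with a minimum count of 10 and a minimum total of 15, TMM scaling), in 1 model of the 4 groups, with Benjamini-Hochberg adjustment over the 16238 genes tested. Genes were called higher or lower at an adjusted p under 0.05, and SE is the log2 fold change divided by the root of F. The workflow was tested on simulated counts. Levels between genes are compared as CPM per kilobase of exon, from RefSeq models of TAIR10.1 matched by locus name, for 32548 of the 32833 genes. Coordinates and upstream sequence were read from the TAIR10.1 genome with its own annotation and were not converted.

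The members and all lists were chosen with earlier results of these data known. Members are named with every library's value where they had the highest level per kilobase or the largest called change of their LEA group (the 3 largest in LEA_4) or were called for the difference between tissues; from the other lists up to 3 members of smallest adjusted p are named per comparison, and further ones beside the LEA group they are known to regulate. Counts of reads and floors of 3 reads cover counting error only. Embryo and seed coat libraries of the same genotype and replicate number deviated together from their group means. Their correlations were 0.40, 0.46 and 0.27 for Col-0 and 0.40, 0.51 and 0.16 for the mutant. A number was treated as 1 seed lot, though the labels do not state it. Mutant embryo 3 correlated more with mutant seed coat 1 (0.22) than with its own number. Libraries of different genotypes reached 0.42 (Col-0 embryo 2 with mutant embryo 1), so these correlations cannot establish the lots. Alternatives were RLE size factors, total reads only, TMM without the abundant seed lists, no filter, DESeq2 1.42.0, unstranded counts, blocks by replicate number or seed lot, each library left out, and another length or denominator for levels and shares.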

Additional observations from a re-analysis of the deposited data

Results flagged for a closer look

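For 6 LEA genes the effect of the mutant differed between embryo and seed coat by a test of the difference itself, the interaction term of edgeR's quasi-likelihood model of all 12 libraries. The seed coat effect minus the embryo effect was log2 -2.41 for LEA7 (adjusted p = 7.01e-05), -1.33 for AT3G02480 (adjusted p = 0.0246), -0.90 for AT2G23110 (adjusted p = 0.00671), -0.89 for AT2G46140 (adjusted p = 0.00226), -0.88 for LEA14 (adjusted p = 0.0024) and -0.63 for AT2G23120 (adjusted p = 0.0238). All 6 differences had the same sign, beside 3.72% of all tested genes lower and 2.02% higher. Each mutant-to-Col-0 ratio was nearer to 1 in the seed coat than in the embryo. The calls of AT3G02480 and AT2G23120 were each lost when certain single libraries were left out, as given above. LEA7, AT3G02480, AT2G23110 and LEA14 were called higher in both tissues, while AT2G46140 and AT2G23120 were called higher in the embryo and not called in the seed coat.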

How the results depend on the processing

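The counts of LEA genes higher in the mutant (embryo 29, seed coat 26) moved by less than 1.5 times under every alternative run. Scaling by total reads only moved the all-gene median to log2 -0.35 (embryo) and -0.30 (seed coat) and the LEA medians to 1.11 and 0.75. Other counts were less stable, and the cause was not tested. In the seed coat 2 members were lower, against 5 by total reads, 1 with RLE size factors, 1 without the low-count filter and 1 to 2 when any 1 library was left out. Of all genes 23.5% were lower there, against 38.1% by total reads, 23.9% with RLE size factors and 14.7% without the filter. With any 1 library left out, 19.3% to 23.4% of all genes were lower. For the difference between tissues 0 members were higher, against 1 by total reads, 1 by DESeq2, 3 with the seed lot block and 0 to 1 with any 1 library left out. For the same difference 6 were lower, against 16 with the block, 7 by DESeq2, 5 without the filter and 4 to 7 with any 1 library left out. Of all genes 1.77% were lower without the filter and 1.63% to 3.35% with any 1 library left out. All genes called for the difference numbered 932, against 2579 with the block and 476 to 844 with 1 library left out (476 without mutant embryo 1, 563 without mutant embryo 3, 523 without mutant seed coat 1, 518 without mutant seed coat 3). Between tissues, total reads gave 9 higher and 13 lower members in Col-0 and 19 lower in the mutant, where the seed lot block gave 12 lower, and all genes called in the mutant numbered 9450. Of the TMM-scaled library size, the members took 4.39% (Col-0) and 9.54% (mutant) in embryos and 4.83% and 8.93% in seed coats, so the order of the Col-0 tissues turned.

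Signs turned for small changes, given here for the members named with every library's value. By total reads these were, for mutant against Col-0, GEA6 (log2 -0.17) and M17 (-0.33) in the embryo and AT2G23120 (-0.16) in the seed coat. For seed coat against embryo they were LEA18 (-0.032), AT2G44060 (-0.44), M17 (-0.33) and AT2G23120 (-0.089) in Col-0 and AT3G15670 (-0.35) and AT3G02480 (-0.11) in the mutant. Of these, LEA18 (log2 0.44) and AT2G23120 (log2 0.39) had been called higher in Col-0 seed coat with TMM scaling. By total reads edgeR's quasi-likelihood test called neither (adjusted p = 0.764 and 0.497). M17 in the embryo was -0.0074 with RLE and -0.0072 by DESeq2, and AT2G44060 was -0.0087 between Col-0 tissues without the filter. With 1 library left out, ranges crossed 0 for mutant against Col-0 in the embryo at M17 (-0.11 to 0.14) and EM1 (-0.29 to 0.18). They did so for the difference at AT2G44060 (-0.18 to 0.036), SAG21 (-0.054 to 0.77) and AT3G22490 (-0.0011 to 0.32), and between Col-0 tissues at AT2G44060 (-0.10 to 0.12) and AT4G36600 (-0.33 to 0.18). Between mutant tissues they did so at LEA4-5 (-0.17 to 0.088), AT2G44060 (-0.081 to 0.020), AT3G15670 (-0.067 to 0.22), AT2G23110 (-0.12 to 0.028) and M10 (-0.15 to 0.078). Among the other members, signs also turned by total reads for 1 in the difference and for 3 in each genotype between tissues, and with 1 library left out for 3 in the difference, 3 between Col-0 tissues and 2 between mutant tissues; 0 of these were called.

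A replicate block by number over all libraries kept 29 and 26 higher members, with 7483 genes called in the embryo, and left the other counts within 1.5 times. Libraries of the same number in different genotypes did not deviate together and were not treated as 1 seed lot. Their correlations were -0.30, -0.47 and -0.06 for embryos and -0.19, -0.24 and -0.04 for seed coats. Some libraries of different number and genotype did deviate together. Such pairs ranged from -0.17 to 0.42 for embryos and from -0.12 to 0.28 for seed coats. The 8 members with too few reads limit what can be said of COR15A, COR15B and the other scarce genes.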

Other observations

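On the strand opposite to COR15B, the embryo libraries held 170 (Col-0) and 196 (mutant) reads, beside 0 and 14 on its own strand, and the seed coat libraries 110 and 131, beside 0 and 6. In the annotation used here the COR15B model overlaps a gene of the opposite strand, AT2G42520, so counts without strand could not be read as COR15B. The RefSeq model of UNE15 has 4151 bases of exon. Its start codon lies 3615 bases of genome, any introns included, from the gene start. The level per kilobase of UNE15 thus depends on that model.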
